A study of Saccharomyces cerevisiae with 36 samples.

Results

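The mud13 strain of budding yeast lacks CBC2, the gene of the small subunit of the nuclear cap-binding complex, and 2 of the 36 arrays of this survey of mRNA processing mutants compared its total RNA with that of the wild type BY4741. The arrays were chosen by their titles and by the channel labelled mud13. On array 1 the mutant RNA was in channel 2, and on array 2 it was in channel 1. Per the labels, mud13 and the strains set against it below, gcr3 and hsp104, were grown at 26 °C. The fit of all 36 arrays used below also holds prp4-1a, labelled as 2 hours at 37 °C, and dbr1, whose labels give no temperature. The setting called deletion strains only leaves out prp4-1a. The gcr3 strain, which lacks the large subunit of the same complex (gene STO1), had 2 arrays of the same layout and serves below as the strain most like mud13. The sources used here do not say if the arrays hold RNA of separate cultures or clones. A p-value below therefore rests on the spread between arrays, and that spread may be technical. In total RNA of a culture, a change in every cell and a change in some cells cannot be told apart.

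The nuclear cap-binding complex is a heterodimer that sits on the methylated guanosine cap of RNA polymerase II transcripts soon after they emerge. The small subunit holds the cap itself, and the large subunit is the scaffold that keeps the small one in its cap-binding shape and meets other factors. In yeast the complex is dispensable for growth, and it is known for helping the U1 snRNP settle on the 5′ splice site in the first steps of spliceosome assembly. It also takes part in transcript export and nuclear RNA turnover. CBC2 was found under the name MUD13 in a screen for mutants that cannot do without an otherwise dispensable part of the U1 snRNP.

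For each of 230 introns in 223 genes the arrays carried, by roles inferred from probe order, a probe at the exon junction, a probe in the intron and a probe in an exon. Values below are on the log2 scale, with the mutant over the wild type. Subtracting a gene's exon probe from its intron probe gives the intron index, which is high where RNA with the intron, or the excised intron itself, is raised relative to the gene's total RNA. Subtracting the exon probe from the junction probe gives the junction index, which follows spliced RNA in the same way. An index is a difference within 1 array and is not moved by the scaling of that array. Errors are standard errors of the limma fit of 36 arrays, and a feature passed the test where its adjusted p (Benjamini-Hochberg, over all introns or genes of the measure) was under 0.05, with n = 2 arrays for mud13.

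The arrays of mud13 gave 2488 usable spots on array 1 and 2540 on array 2, of 2896 with a gene symbol, against 2127 to 2792 over the survey. The mud13 arrays lay further apart than most. Their spread was 2.15 times that of the median strain at intron indices, 3.04 times at junction indices and 3.21 times at exon probes, and at exon probes it was the widest of the 18 strains. The fit shares 1 spread over all strains, so its errors and p-values are too small for mud13, and results are also given with the arrays of each strain weighted by that strain's own spread (weighted arrays). CBC2 had 0 probes, so the deleted gene cannot check the label. The exon probe of STO1 read −0.05 and −0.13 on the mud13 arrays, against −5.81 and −5.37 on the gcr3 arrays. By this probe the partner subunit was lost from the gcr3 RNA, and its level did not change past the test in mud13. The STO1 intron probe did not fall with the deletion and read 0.96 and 1.15 on the gcr3 arrays. From the exon and junction probes of such deleted genes, the deposited ratio likely runs channel 2 over channel 1. If it ran the other way, every count of higher and lower features below would swap.

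Introns were raised broadly in mud13. The intron index was higher in 108 of 221 introns tested (48.9%) and lower in 1 (0.452%), and its median was 0.46 over all introns tested, with medians of 0.46 on array 1 and 0.44 on array 2. Of the 108 raised introns, 107 had an index above 0 on both arrays, against 146 of all 215 introns measured on both. The exception was PMI40, a mannose phosphate isomerase gene, with −0.08 on array 1 and 1.24 on array 2. The 108 were called from these same arrays, so such agreement is largely built in. Among the 18 strains, the median index of mud13 ranked 9, next to gcr3 at rank 8 and mud2 at rank 10. With arrays weighted by strain, 61 introns rose and 0 fell, and all 61 were among the 108. Without array 1 the raised introns numbered 67. Against the hsp104 strain, which lacks a heat-shock disaggregase and serves here as a second reference, 72 of 219 introns were higher (32.9%) and 2 were lower (0.913%).

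**Figure D1:**
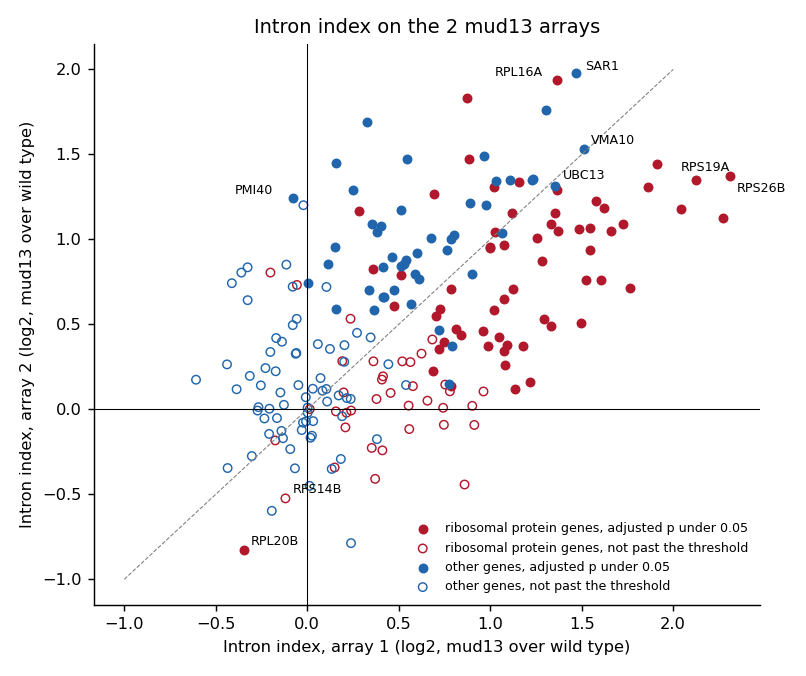
Each point is 1 of the 215 introns measured on both mud13 arrays, with its intron index (log2, mud13 over wild type) on array 1 across and on array 2 up; red marks ribosomal protein genes, blue other genes, and filled points passed an adjusted p of 0.05. Most filled points lie above 0 on both arrays, the red ones reach further along array 1, and RPL20B is the only filled point below 0 on both.

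The highest index was that of RPS26B, a small ribosomal subunit protein gene, with 2.31 on array 1 and 1.37 on array 2 (1.84 ± 0.21, adjusted p = 2.78e-07, 3.59-fold). RPS19A, of the same subunit, had 2.12 and 1.35 (1.74 ± 0.23, adjusted p = 1.59e-06). The third was SAR1, the small GTPase that starts the COPII coat on vesicles leaving the endoplasmic reticulum, with 1.47 and 1.98 (1.72 ± 0.19, adjusted p = 2.78e-07, 3.30-fold). All of these lay well above 0 on either array, and the ribosomal protein introns were higher on array 1 while SAR1 was higher on array 2. RPS27B (2.27 and 1.12), RPL26B (1.91 and 1.44), RPL16A (1.36 and 1.94), RPL29 (2.04 and 1.18) and RPL37B (1.86 and 1.31) completed the 8 highest, with indices of 1.58 to 1.70. Each of the 8 kept its call with weighted arrays, with adjusted p of 6.19e-05 to 5.45e-04.

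A higher index can come from more intron signal, from less exon signal, or from both. Unlike the index, single probes move with the scaling of an array, so the split below holds for the deposited scaling only. With exon centring, 34 of 228 exon probes fell over all genes, against 100 without it. The intron probe itself rose in 69 of the 108 raised introns, fell in 1 and did not pass the test in 38. The exon probe fell in 67 of the 108 and rose in 0, against 43.9% lowered over all exon probes. The 108 were picked by intron minus exon, which favours low exon probes among them. In 31 of the 108 the exon probe fell and the intron probe did not rise. Over all genes, intron probes rose in 74 of 222 (33.3%) and fell in 12 (5.41%), and without array 2 they rose in 42. The RPS26B intron probe read 1.36 and 1.14 while its exon probe read −0.95 and −0.23, so the probes lay on opposite sides of 0. UBC13, the ubiquitin-conjugating enzyme of error-free DNA damage tolerance, read 1.47 and 1.42 at the intron and 0.11 and 0.10 at the exon, so its index of 1.34 ± 0.19 lay almost wholly in the intron probe. CIN2, a tubulin folding factor, was the opposite case, with intron probe values of −0.20 and −0.45 and exon probe values of −0.80 and −1.36, and its index of 0.76 ± 0.13 arose where both probes read below 0.

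**Figure D2:**
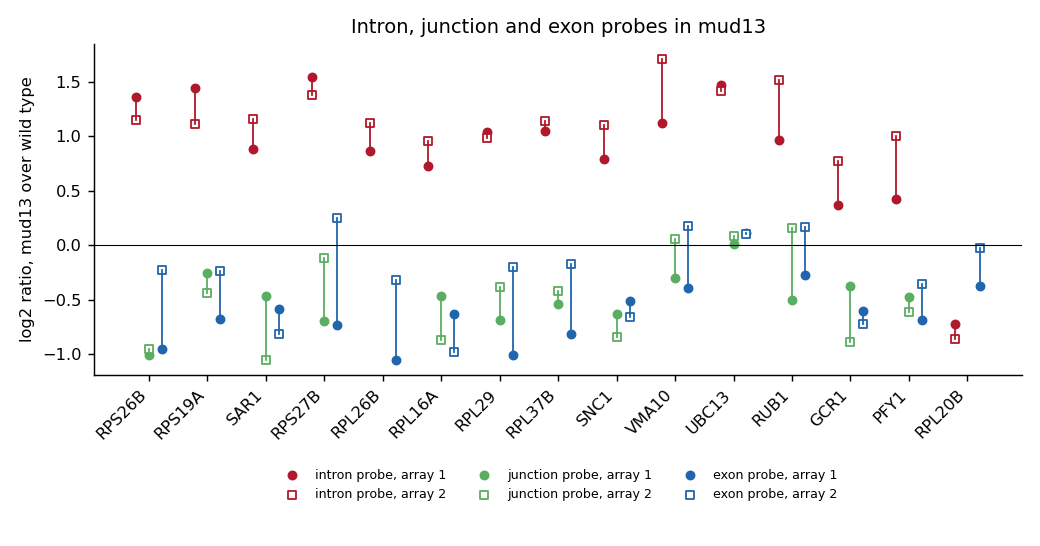
log2 ratios of mud13 over wild type for the intron (red), junction (green) and exon (blue) probes of 15 genes on array 1 (filled circles) and array 2 (open squares), with a line joining the arrays; RPL26B and RPL20B had no junction value. In the first 14 genes the intron probe lies above 0 on both arrays and above the exon probe, and in RPL20B it lies at −0.72 and −0.86, below the exon probe.

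Ribosomal protein genes, which carry 100 of the 230 introns and give rise to most spliced transcripts of a growing yeast cell, held 61 of the 108 raised introns. The index rose in 33 of 56 large subunit introns (median 0.61) and fell in 1, and it rose in 28 of 43 small subunit introns (median 0.74) and fell in 0. Together this was 61 of 99 ribosomal protein introns (median 0.66), against 47 of 122 introns of all other genes (median 0.24) and a background of 48.9% over all introns. With weighted arrays the counts were 38 of 99 and 23 of 122. Array 1 decided how far the groups differed: without it the index rose in 31 of 99 ribosomal protein introns and in 36 of 117 others, and without array 2 in 64 of 99 and 34 of 121. Whether the groups differ was not tested. RPS17B, the small subunit gene next in rank after RPS27B, had 1.58 and 1.23 (adjusted p = 1.53e-06). RPL30, whose protein binds its own transcript and holds back its splicing, had indices of 1.50 and 0.51 (1.00 ± 0.20, adjusted p = 1.54e-04). RPL28, another large subunit protein gene, had 0.86 and −0.44 and did not pass the test (0.21 ± 0.24). RPL20B was the only intron that fell, with −0.35 and −0.83 (−0.59 ± 0.18, adjusted p = 0.00816), and this call was lost with weighted arrays (adjusted p = 0.106) and without array 2.

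Copies of the same ribosomal protein gene were set side by side. Among 43 pairs with both copies measured, both introns rose in 19, 1 rose in 16 and neither rose in 8. Taken singly, 61 of 99 ribosomal protein introns rose. The median absolute difference between copies, taken from the fit over both arrays, was 0.42. Between the 2 mud13 arrays the median absolute difference was 0.39 over 215 introns. That value compares single arrays, which hold the dye effect and vary more than the fit, so the 2 medians are unlike measures. The pairs that follow are among those that differed most. RPS26A stood at 0.06 ± 0.23 against 1.84 ± 0.21 for RPS26B, and RPS25A at −0.02 ± 0.19 against 1.31 ± 0.23 for RPS25B. RPS18A stood at −0.18, against 1.03 for RPS18B. RPL16 ran the other way, with 1.65 ± 0.21 in copy A and 0.54 ± 0.21 in copy B, and both of these passed the test. Differences between copies were not tested, and exon probes of near-identical copies may share RNA, so these pairs are uncertain.

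In the list of secretion and vacuole genes the index rose in 10 of 17 introns (median 0.52) and fell in 0, a share near the 48.9% over all introns. Besides SAR1, SNC1, the SNARE of vesicles bound for the plasma membrane, had 1.30 and 1.76 (1.53 ± 0.19, adjusted p = 1.59e-06). VMA10, a subunit of the vacuolar proton pump, had 1.51 and 1.53 (1.52 ± 0.21, adjusted p = 1.69e-06), so its arrays were nearly equal. SEC27, of the COPI coat, had 0.35 and 1.09 (0.72 ± 0.21, adjusted p = 0.00694), a call lost with weighted arrays (adjusted p = 0.123). With weighted arrays 4 of the 17 introns rose, against 61 of 221 over all introns.

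Of the list of ubiquitin, RUB1 and proteasome genes, 5 of 8 introns rose (median 0.82) and 0 fell, against 48.9% raised and a median of 0.46 over all introns, and 4 of 8 rose with weighted arrays. RUB1, a ubiquitin-like protein attached to cullins, had 1.24 and 1.35 (1.30 ± 0.17, adjusted p = 1.53e-06). UBC8, a ubiquitin-conjugating enzyme needed when cells return to glucose, had 1.03 and 1.35, and UBC9, the conjugating enzyme of SUMO, had 1.06 and 1.04. Together with UBC13 these 4 genes had indices of 1.05 to 1.34, and the arrays of each lay close together. The exon probes of UBC8 (−0.69) and UBC9 (−0.85) fell, so their indices rest in large part on the exon. Those of RUB1 (−0.05) and UBC13 (0.11) lay near 0.

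Among mRNA processing and export genes the index rose in 3 of 10 and fell in 0, and its median was 0.04, against 48.9% raised and a median of 0.46 over all introns. GCR1, the activator of glycolytic genes that the list also holds, had 0.97 and 1.49 (1.23 ± 0.14, adjusted p = 2.82e-07). STO1, the gene of the partner subunit, had 0.61 and 0.77 (0.69 ± 0.23, adjusted p = 0.0134), with intron probe values of 0.56 and 0.64. The call was lost with weighted arrays (adjusted p = 0.106) and when either mud13 array was left out. The same intron probe read 0.96 and 1.15 on the gcr3 arrays, where STO1 is deleted, so what this probe measures is uncertain. LSM2, a core protein of the LSM rings, had 0.72 and 0.47 (0.59 ± 0.19, adjusted p = 0.0134). YRA1, an export adaptor with an intron that limits its own expression, had 0.24 and −0.79. DBP2, a helicase whose long intron is used in the same way, had −0.17 and 0.42, and MUD1, of the U1 snRNP, had −0.27 and 0.01. For YRA1, DBP2 and MUD1 the signs differed between arrays and none passed the test (adjusted p of 0.485 to 0.616).

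The lists of cytoskeleton, mitochondrial, snoRNA host and meiotic genes are small, with 4 to 12 introns tested, and are given by their counts beside the 48.9% over all introns. Cytoskeleton introns rose in 3 of 12 (median 0.06), with PFY1, profilin, at 1.11 and 1.35 (1.23 ± 0.19, adjusted p = 8.02e-06), CIN2 as given above, and COF1, cofilin, at 0.77 and 0.15 (0.46 ± 0.17, adjusted p = 0.0301). The intron of ACT1, the actin gene and a common test case of yeast splicing, had −0.07 and −0.35 and did not pass the test. Mitochondrial introns rose in 2 of 8 (median 0.01): ERV1, a thiol oxidase of the intermembrane space, had 0.80 and 1.02, and YML6, a mitochondrial ribosomal protein, had 0.59 and 0.80. Of 8 introns tested in genes that host snoRNAs, 1 rose, the first intron of RPS22B, with 1.07 and 0.34 (0.71 ± 0.21). Of 4 meiotic introns tested, 1 rose, that of the recombinase gene DMC1, with 0.11 and 0.86 (0.49 ± 0.18, adjusted p = 0.0356). With weighted arrays the calls of COF1, YML6, DMC1 and the first intron of RPS22B were lost, as was that of LSM2 (adjusted p of 0.0592 to 0.260). REC107, whose splicing in meiosis needs the factor Mer1, had 0.18 and −0.29. Of 13 introns in genes with 2 introns, 2 rose (median 0.01).

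Few junction indices passed the test. The junction index rose in 0 of 220 junctions and fell in 4 (1.82%) by limma, with 2 higher and 10 lower at an unadjusted p under 0.05. Its median was −0.02, but the arrays differed in sign, with medians of 0.12 on array 1 and −0.17 on array 2. Of 217 junctions measured on both arrays, 29 lay above 0 on both and 31 below 0 on both. All 4 lowered junctions belonged to ribosomal protein genes, which held 96 of the 220 junctions tested. Genes that host snoRNAs held 11 of the 220 and 3 of the 4, in RPS22B and RPL7B. Both RPL7B indices subtract the same exon probe. The first junction of RPS22B had −0.91 and −1.59 (−1.25 ± 0.14, adjusted p = 2.90e-06), and its second had −0.13 and −0.54 (−0.34 ± 0.10, adjusted p = 0.135). In RPL7B the first junction had −0.53 and −1.07 (−0.80 ± 0.11, adjusted p = 3.67e-05) and the second −0.43 and −0.65 (−0.54 ± 0.10, adjusted p = 9.12e-04). RPS21A had −0.13 and −0.70 (−0.42 ± 0.09, adjusted p = 0.0125). With weighted arrays the first junctions of RPS22B and RPL7B passed (adjusted p = 0.0112 and 0.0115), and with the 2 mud13 arrays alone 0 did. Without array 1 the lowered junctions numbered 29, and without array 2 they numbered 2.

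Of the introns behind these junctions, that of RPS21A had a raised index (1.27 ± 0.24), with its exon probe at −0.43. The index of the first RPS22B intron was also raised (0.71), and those of RPL7B did not pass the test. The first RPL7B intron had indices of 0.014 and 0.0017, and the second had −0.20 and 0.80. At the first intron of RPS22B the intron probe read −0.46 and −0.36 and the exon probe −1.54 and −0.70, so both were below 0 and the exon probe was the lower one. Without subtraction of the exon, junction probes fell in 67 of 220 (30.5%) and rose in 8 (3.64%), and without array 2 they fell in 40.

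Exon probes, which follow the total transcript of a gene, lay low as a group. They fell in 100 of 228 (43.9%) and rose in 8 (3.51%), and the median was −0.28, with −0.40 on array 1 and −0.13 on array 2. A shift of this size depends on the scaling of the arrays. With arrays centred on the exon and intronless probes, 34 fell and 33 rose, a median shift of 0.28. With weighted arrays 5 fell and 0 rose, and with the 2 mud13 arrays alone 0 passed in either direction, with adjusted p of 0.364 or above for the exon probes named here. Without array 1, 54 fell, and without array 2, 0 rose. The exon values below are therefore given mainly relative to one another.

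The 5 exon probes that fell with weighted arrays were those of RPS22B, CIN2, RPS9A, ATG38 and HIS4. RPS22B, a small ribosomal subunit protein gene, had −1.54 and −0.70 (−1.12 ± 0.14, 2.17-fold lower), and CIN2 had −0.80 and −1.36 (−1.08 ± 0.11, 2.12-fold lower). RPS9A had −1.21 and −0.93 (−1.07 ± 0.13), and ATG38, a subunit of an autophagy lipid kinase complex, had −0.62 and −1.42 (−1.02 ± 0.12). HIS4, of histidine synthesis, has no intron and had −1.31 and −0.51 (−0.91 ± 0.11, 1.88-fold lower). All of them stood below the median of −0.28 on both arrays, and all 5 also fell when arrays were centred on exon probes.

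Of 5 genes without introns 4 fell, against 43.9% over all exon probes, namely HIS4, FAS1 (fatty acid synthase, −0.79 and −0.35), GAL1 (galactokinase, −0.65 and −0.13) and ADH1 (alcohol dehydrogenase, −0.74 and 0.0011), and GAL10 had −0.33 and 0.23. With exon centring, HIS4 and FAS1 kept their calls while GAL1 and ADH1 lost theirs (adjusted p = 0.428 and 0.287). Ribosomal protein exon probes fell in 55 of 97 and rose in 1, with a median of −0.39, against −0.15 for other genes with introns. This count moved with the arrays and the scaling: 21 of 97 fell without array 1, against 33 of 128 probes of all other genes, 76 of 97 fell without array 2, 18 with exon centring and 2 with weighted arrays. Of 8 snoRNA host genes, 7 fell, among them ASC1 (−0.74 ± 0.12) and RPL7B (−0.55 ± 0.10), and 3 fell with exon centring and 1 with weighted arrays.

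In the list of mitochondrial genes 4 of 8 exon probes rose, against 3.51% over all exon probes, and 2 fell. The 4 that rose code for respiratory chain subunits, a feature seen only after their values were known. QCR10, a subunit of the cytochrome bc1 complex, had 0.33 and 1.09 (0.71 ± 0.14, adjusted p = 1.84e-04), the highest exon change. COX5B, the cytochrome c oxidase isoform known from low oxygen, had 0.47 and 0.73 (0.60 ± 0.14, adjusted p = 9.63e-04). QCR9 had 0.25 and 0.64 (0.45 ± 0.11), and COX4 had 0.40 and 0.20 (0.30 ± 0.12). All 4 were above 0 on both arrays and none of their introns rose. The 2 that fell were ERV1 (−0.85 ± 0.14) and RIM1, which binds mitochondrial DNA (−0.67 ± 0.13). With weighted arrays none of the 8 passed, with adjusted p of 0.135 for QCR10 and 0.255 for COX5B. QCR10, COX5B and QCR9 were higher on array 2 and COX4 on array 1, and without array 2 QCR10 stood at 0.18. The loss of raised calls without array 2, given above for all exon probes, is not particular to these genes. DYN2, a dynein light chain outside this list, had 0.14 and 0.80 (0.47 ± 0.15, adjusted p = 0.0125), a call also lost with weighted arrays (adjusted p = 0.383) and without array 2.

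**Figure D3:**
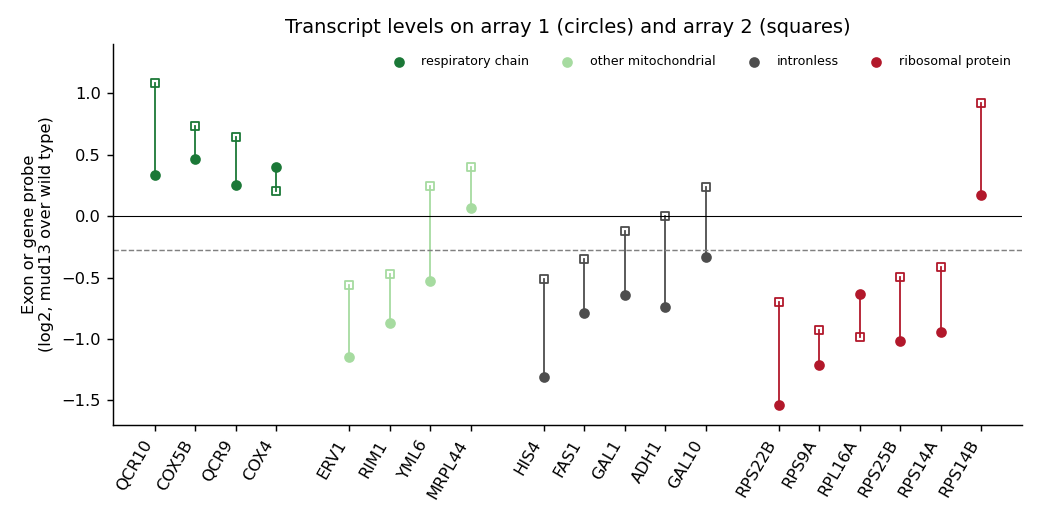
Exon or gene probes (log2, mud13 over wild type) of respiratory chain, other mitochondrial, intronless and ribosomal protein genes on array 1 (circles) and array 2 (squares), with a line joining the arrays and the median of all exon values (−0.28) dashed. The 4 respiratory chain genes lie above 0 on both arrays, as does RPS14B, and the other ribosomal protein genes drawn lie below the dashed line.

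The comparison of mud13 with gcr3 asks whether loss of the small subunit left the same picture as loss of the large one. Both strains were set against the same wild type strain, and their values are given side by side. In gcr3 the intron index rose in 143 of 221 introns (64.7%) and fell in 4 (1.81%), with a median of 0.73, against 108 and 1 and a median of 0.46 in mud13. In the direct contrast, mud13 minus gcr3, 26 of 220 introns were lower in mud13 (11.8%) and 0 were higher by limma (1 at an unadjusted p under 0.05). With weighted arrays 7 of the 26 were lower, and with the 4 arrays of both strains alone also 7. With 1 gcr3 array left out the count was 10 or 13.

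Most of the 26 introns lay outside the ribosomal protein genes. Of 121 other introns 24 were lower in mud13 than in gcr3, with a median difference of −0.41, and of 99 ribosomal protein introns 2 were, with a median of −0.06. Whether the groups of genes differ in this was not tested. The median of the ribosomal protein introns turned with the arrays used. It was −0.41 without mud13 array 1 and 0.18 without mud13 array 2, while that of the other introns was −0.43 and −0.35. By list, introns lower in mud13 numbered 6 of 17 for secretion and vacuole, 4 of 8 for mitochondria and 2 of 8 for ubiquitin, against 11.8% over all introns. The lists of mRNA processing (STO1 itself), cytoskeleton, large ribosomal subunit and small ribosomal subunit held 1 each, and those of snoRNA hosts and meiosis held 0.

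**Figure D4:**
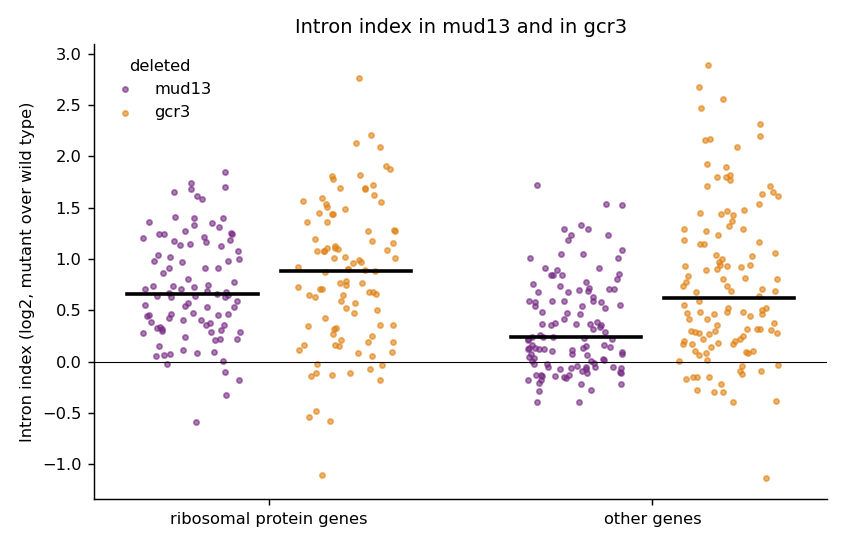
Intron indices (log2, mutant over wild type) of ribosomal protein genes and of other genes in mud13 (purple) and gcr3 (orange), 1 point per intron tested in both strains, with a bar at the median and STO1, which is deleted in gcr3, left out. The purple and orange bars of ribosomal protein genes lie closer together than those of the other genes.

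PFY1 had indices of 1.11 and 1.35 in mud13, against 2.46 and 2.89 in gcr3 (difference −1.44 ± 0.26, adjusted p = 5.22e-04). UBC13 had 1.36 and 1.32 in mud13, against 2.20 and 2.91 in gcr3 (−1.22 ± 0.27, adjusted p = 0.00410). YML6 had 0.59 and 0.80 in mud13, against 2.18 and 1.61 in gcr3 (−1.21 ± 0.21, adjusted p = 4.81e-04). In each of these genes the index was above 0 on all 4 arrays. Each difference held with weighted arrays (adjusted p = 0.0188, 0.0188 and 0.0262). RPO26, a subunit shared by the nuclear RNA polymerases, differed by −1.30 ± 0.39, a call lost with weighted arrays (adjusted p = 0.0696). SAR1 had 1.47 and 1.98 in mud13, against 2.60 and 3.19 in gcr3 (−1.17 ± 0.27, adjusted p = 0.00512), and missed the threshold with weighted arrays (adjusted p = 0.0503). STO1, which is deleted in gcr3, differed by −5.96 ± 0.32, and its exon probe fell there while its intron probe did not.

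RPS14B passed the test in all 3 measures of mud13 minus gcr3. In mud13 against wild type, its intron index (−0.32 ± 0.14) and junction index (0.20) did not pass. The RPS14B exon probe rose there (0.55), though 0 exon probes rose with weighted arrays. Its protein binds the RPS14B transcript and blocks the removal of its intron, while the copy RPS14A is spliced freely. The RPS14B intron index was −0.12 and −0.52 in mud13, against 1.96 and 1.42 in gcr3, a difference of −2.01 ± 0.20 (adjusted p = 4.15e-08). The junction index was 0.29 and 0.11 in mud13, against −0.54 and −1.07 in gcr3 (1.00 ± 0.20, adjusted p = 0.00622). The exon probe read 0.17 and 0.92 in mud13, against −1.79 and −1.27 in gcr3 (2.08 ± 0.19, adjusted p = 3.14e-09). All 3 differences held with weighted arrays (adjusted p of 2.00e-05, 0.0476 and 1.57e-05), the first and the last also with the 4 arrays alone. The intron probe itself read 0.05 and 0.40 in mud13, against 0.15 and 0.14 in gcr3, so the strains were close at the intron probe and apart at the exon probe. RPS14A had intron indices of 0.21 and −0.02 in mud13, against 0.18 and −0.02 in gcr3, and exon values of −0.94 and −0.41 in mud13, against −0.05 and 0.04 in gcr3.

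**Figure D5:**
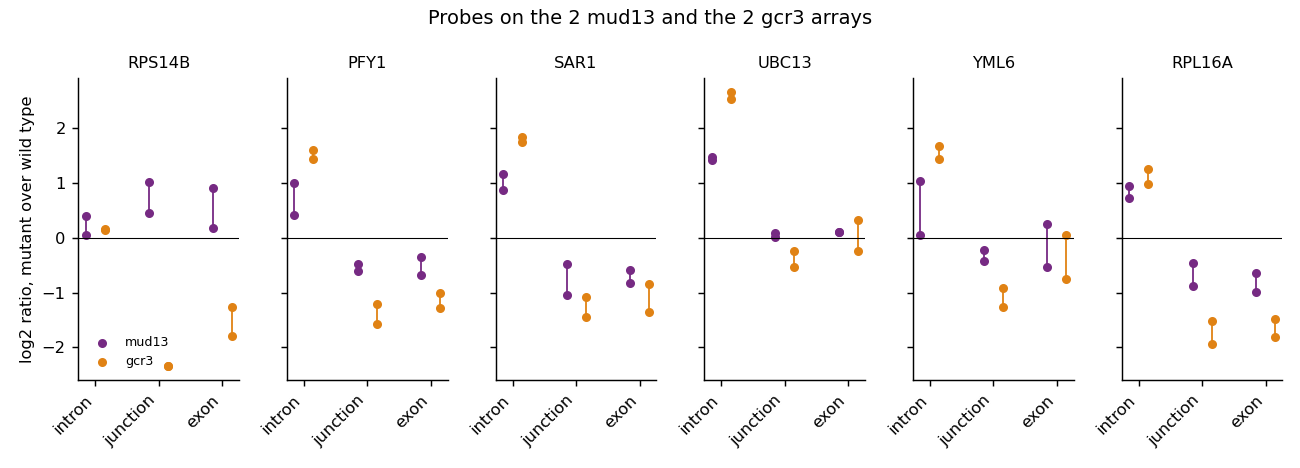
log2 ratios of mutant over wild type for the intron, junction and exon probes of 6 genes on the 2 mud13 arrays (purple) and the 2 gcr3 arrays (orange), with a line joining the arrays of a strain. In RPS14B the intron probes lie close together while the junction and exon probes lie above 0 in mud13 and below 0 in gcr3, and in PFY1, SAR1, UBC13 and YML6 the intron probe is lower in mud13.

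At junctions, 5 of 219 were higher in mud13 than in gcr3 (2.28%) and 0 were lower by limma (1 at an unadjusted p under 0.05). The first junction of RPL7B was −0.53 and −1.07 in mud13, against −1.80 and −1.72 in gcr3 (0.96 ± 0.16, adjusted p = 8.42e-04), and the second differed by 0.59 ± 0.13. The first junction of RPS22B stood at −1.25 in mud13 and at −1.23 in gcr3 (difference −0.01 ± 0.20, adjusted p = 0.965). ATG38 differed by 0.74 ± 0.17, and this call and that of the second RPL7B junction were lost with weighted arrays. Without mud13 array 1 the count was 0 and without mud13 array 2 it was 32.

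Exon probes were higher in mud13 than in gcr3 in 9 of 228 genes (3.95%) and lower in 5 (2.19%). The higher ones included STO1 itself (5.50 ± 0.27), RPS14B, RPL16A (−0.63 and −0.98 in mud13, against −1.48 and −1.81 in gcr3) and PFY1 (0.63 ± 0.15). The lower ones were YRA1 (−0.78 and 0.39 in mud13, against 0.85 and 0.68 in gcr3), RIM1 (−0.95 ± 0.18), the meiotic genes HOP2 (−0.80 ± 0.18) and MEI4 (−0.80 ± 0.20), and RPS14A (−0.67 ± 0.20). With weighted arrays, STO1 and RPS14B alone held. With 1 of the 4 arrays left out, the higher ones numbered 3 to 19 and the lower ones 0 to 20.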

How the data were processed

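The values are log2 ratios of the 2 channels, 1 per spot, as deposited by the authors. How the background was treated and what scaling was used is not given in the sources. The base was checked on recurring values of single arrays: of 1469 differences, 106 were within 3e-08 of log2 of a quotient of integers of at most 60, against 0 at base e and 2 at base 10. These values sat at a constant offset within an array, so some scaling per array is likely. Spots at exactly 0 and blanks were treated as missing, usable spots of a probe (up to 4) were averaged, and no scaling was added. The files hold no intensities, so probes at background cannot be told from others, and the number of arrays limits the precision.

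The annotation gave 1 symbol to 2896 spots (724 probes), several to 0 and none to 560, and all 230 symbols were found in the gene table. Genes with 3 neighbouring probes (216) were read as junction, intron and exon, and genes with 5 (7) as 2 pairs of junction and intron followed by the exon. These roles are inferred. The role of 21 probes was uncertain, and these were left out. The 5 intronless genes had 4 probes each, which were averaged. Of 230 introns, 221 could be tested for mud13, and 215 were measured on both arrays.

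The labelled channels set the sign, so that the mutant stands over the wild type. The direction is not stated. Of 306 pairs of arrays of the same orientation, 4 correlated below −0.3 (lowest −0.43), and none of these held mud13 (lowest −0.20). As deposited, the 2 mud13 arrays correlated at −0.58. Each measure was fitted over the 36 arrays in R 4.3.3 with limma 3.58.1 (lmFit, eBayes); the model held 18 strain effects and 1 dye effect, and mud13 minus gcr3 was a contrast in it. The procedure was tested on simulated data. Each array had its own slide per the labels, so no slide could enter as a batch.

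Alternatives were 2 centrings, no dye term, the compared arrays alone, weights by strain, deletion strains only, a trend and robust prior, a threshold of 0.01, spots joined by median, zeros kept, at least 2 usable spots, the hsp104 strain as reference, and leaving out each array of mud13 and gcr3. The members, lists and named-gene rule were chosen with earlier results of these data known. Named were, past the threshold, the top 8 and bottom 4 intron indices, the 4 highest and 6 lowest junctions, the 6 highest and 6 lowest exon changes, the 4 highest and 4 lowest differences from gcr3 per measure, up to 4 called members per list, and STO1, MUD1, ACT1, YRA1, DBP2, RPL30, RPL28, RPS14A, RPS14B, SAR1, RUB1, REC107 and the intronless genes, or fewer in order of rank. PMI40, the copy pairs, COX4, QCR9, and the genes added in the figures and in the comparison with gcr3 were chosen after their values were seen. Some genes that this rule picks, mostly exon values of list members, are not reported here. Lists share members: RPS22B and RPL7B are both ribosomal protein genes and snoRNA hosts.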

Additional observations from a re-analysis of the deposited data

How the results depend on the processing

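Raised introns (108) numbered 61 with weighted arrays and 67 to 98 with 1 mud13 array left out. Lowered junction indices (4) numbered 0 with the compared arrays alone, 2 with weights, 7 with deletion strains only, 2 against hsp104, and 2 to 29 with 1 array left out. Lowered exon probes (100) numbered 34 with exon centring, 52 with centring on all probes, 0 with the compared arrays alone, 5 with weights, 61 at the threshold of 0.01, 63 against hsp104, and 54 to 113 with 1 array left out. Raised intron probes (74) numbered 139 and 117 with the 2 centrings, 36 against hsp104, and 42 to 58 with 1 array left out. Lowered junction probes (67) numbered 20 and 41 with the 2 centrings, 1 with the compared arrays alone, 20 with weights, 115 with deletion strains only, 42 against hsp104, and 40 to 59 with 1 array left out.

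Introns lower in mud13 than in gcr3 (26) numbered 5 without the dye term, 7 with the compared arrays alone and with weights, 42 with deletion strains only, 13 at 0.01, and 10 to 23 with 1 array left out. Junctions higher in mud13 (5) numbered 0 with the compared arrays alone, 2 with weights and at 0.01, 12 with deletion strains only, and 0 to 32 with 1 array left out. Exon probes higher in mud13 (9) numbered 3 without the dye term, 2 with the compared arrays alone and with weights, 5 at 0.01, and 3 to 19 with 1 array left out, and those lower (5) numbered 9 with exon centring, 2 without the dye term and at 0.01, 0 with the compared arrays alone and with weights, and 0 to 20 with 1 array left out. Smaller counts are set out beside the results, and fewer arrays or wider errors give fewer calls by construction; the cause of the other shifts was not tested.

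The exon value of NHP6B (0.40) was −0.13 without array 2 and 0.94 without array 1, and that of TUB1 (−0.55) was 0.14 without array 2 and −1.25 without array 1. A single array left for mud13 is assumed to vary like those of the other strains. The no-dye-term fit is the fit without a block for orientation, and no pairing by replicate number exists, since array numbers follow the order of deposit. The turned direction needs no fit, because raised and lowered counts swap.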

Other observations

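Probes outside the indices gave further values. HMRA1, a mating-type gene, had 7 probes of uncertain role. Their means lay between −0.39 and 0.18 in mud13, against 0.41 to 1.73 in gcr3. The 9 probes of MTR2, an mRNA export factor, are also of uncertain role, and the means of those read on both arrays lay between 0.04 and 0.46 in mud13.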
